A study of Mus musculus with 6 samples.

Results

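Chemokines are small secreted proteins that draw leukocytes along a concentration gradient, and they act through G protein-coupled receptors that signal mainly through Gi. They are sorted by the spacing of their first cysteines into the CC, CXC, CX3C and XC families, and the receptors are named after the family they bind. Some are made constantly and place lymphocytes and dendritic cells in lymphoid tissue, and others are induced by cytokines and recruit monocytes, granulocytes or effector T cells. In inguinal fat these genes are read by resident macrophages and by the lymph node that the depot holds, as well as by stroma and vessels.

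The genes described here were chosen by symbol from the FPKM table of an RNA-Seq experiment on inguinal white adipose tissue (iWAT). An entry was taken if one of its symbols was Ccl, Ccr, Cxcl or Cxcr with a number, or was *Cx3cl1*, *Cx3cr1*, *Xcl1*, *Xcr1* or one of *Ackr1* to *Ackr4*. This gave 61 of 19445 entries, carrying 57 symbols, of which 41 entries were ligands and 20 were receptors. FPKM corrects read numbers for transcript length and library size, so levels of different genes can be set side by side. In at least 1 genotype, 40 entries reached a mean FPKM over 1, 25 ligands and 15 receptors, and these were compared between genotypes among 11692 loci tested. Of the 40, 35 passed in both genotypes, *Ccr10* and *Ccl4* passed only through the transgenic mice, and *Cxcl17*, *Cxcr2* and *Cxcr5* passed only through the wild-type mice. The lowest entry inside the limit was *Cxcl17* with a wild-type mean of 1.06 FPKM, and the highest outside it was *Ccl1* with a wild-type mean of 0.906 FPKM.

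The experiment compared 3 *Hlx* transgenic mice with 3 wild-type littermates, all 12 weeks old and untreated, with 1 library from the subcutaneous inguinal fat of each mouse. *Hlx* encodes a homeobox transcription factor, and the transgene was its full-length cDNA behind the 5.4-kb *aP2* (*Fabp4*) promoter, which is active in fat cells and reported in some other cells as well. The transgene was injected into C57BL/6 × SJL hybrid embryos and the lines were backcrossed to C57BL/6 for at least 3 generations, so some SJL sequence can remain in either genotype. The question was what raised Hlx does to this fat depot, and the comparison below asks it of the chemokine system. Which transgenic line was sequenced is not given in the sources used here.

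*Hlx* had 110, 79.6 and 99.5 FPKM in transgenic replicates 1, 2 and 3 and 6.88, 7.35 and 8.14 FPKM in wild-type replicates 1, 2 and 3, so the genotype labels were borne out in every mouse. The values do not part transgene from endogenous transcripts. The labels give all mice as male, but *Xist* had 20.2 to 33.6 FPKM in the 6 mice and 28 Y-linked loci read 0 in each of them, so the labelled sex goes against the values in both genotypes alike. Adipocyte markers, most of whose FPKM was *Fabp4*, summed to 27580 to 32777 FPKM in the transgenic mice against 23275 to 28936 FPKM in the controls. Of these 6 markers, 1 was lower (16.7%, against 7.03% of all loci tested). It was *Adipoq*, at 1363 ± 89.0 against 2481 ± 415 FPKM (SD, n = 3, limma adjusted p = 0.0172). Brown adipocyte markers summed to 6107 to 7913 and 610 to 1045 FPKM, and 5 of 6 were higher (83.3%, against 11.6% of all loci tested, limma). The FPKM of a library summed to between 466059 and 542096. Relative depth, read from the steps between low values, was 0.711, 1.14 and 0.690 in transgenic replicates 1, 2 and 3. It was 0.939 and 1.42 in wild-type replicates 1 and 2, all relative to wild-type replicate 3. Transgenic replicates 1 and 3 were thus the shallowest libraries, and the part of depth in the results was not tested.

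Among the 40 entries compared, 7 were lower and 2 were higher in transgenic iWAT at an adjusted p under 0.05 (limma on log2(FPKM + 1), Benjamini-Hochberg over all loci tested, n = 3 mice per genotype). The lower genes were the ligands *Ccl24*, *Cxcl9*, *Cxcl13*, *Ccl22*, *Ccl6* and *Ccl9* and the receptor *Ccr2*, and the higher genes were the ligands *Cxcl14* and *Ccl25*. Lower calls made up 17.5% of the 40, where they made up 7.03% of all loci tested, and the 2 higher calls made up 5%, where all loci gave 11.6%. Every transgenic value lay below every wild-type value for 13 entries, or 32.5%, against 20.1% of all loci, and above for 5 entries, or 12.5%, against 22.8% of all loci. The 13 include *Cxcr2* and *Cxcl17*, which passed the limit only through the wild-type mice. The 5 include *Ccr10*, which passed only through the transgenic mice, and the joint entry of *Fyco1* and *Xcr1*. The median log2 fold change of the 40 was -0.38, and that of all loci tested was -0.01. For 3 mice against 3 the exact permutation test cannot go under p = 0.1, and it gave 0.1 for each of the 9 genes. In bulk tissue, fewer cells of a type and less RNA per cell cannot be told apart.

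**Figure D1:**
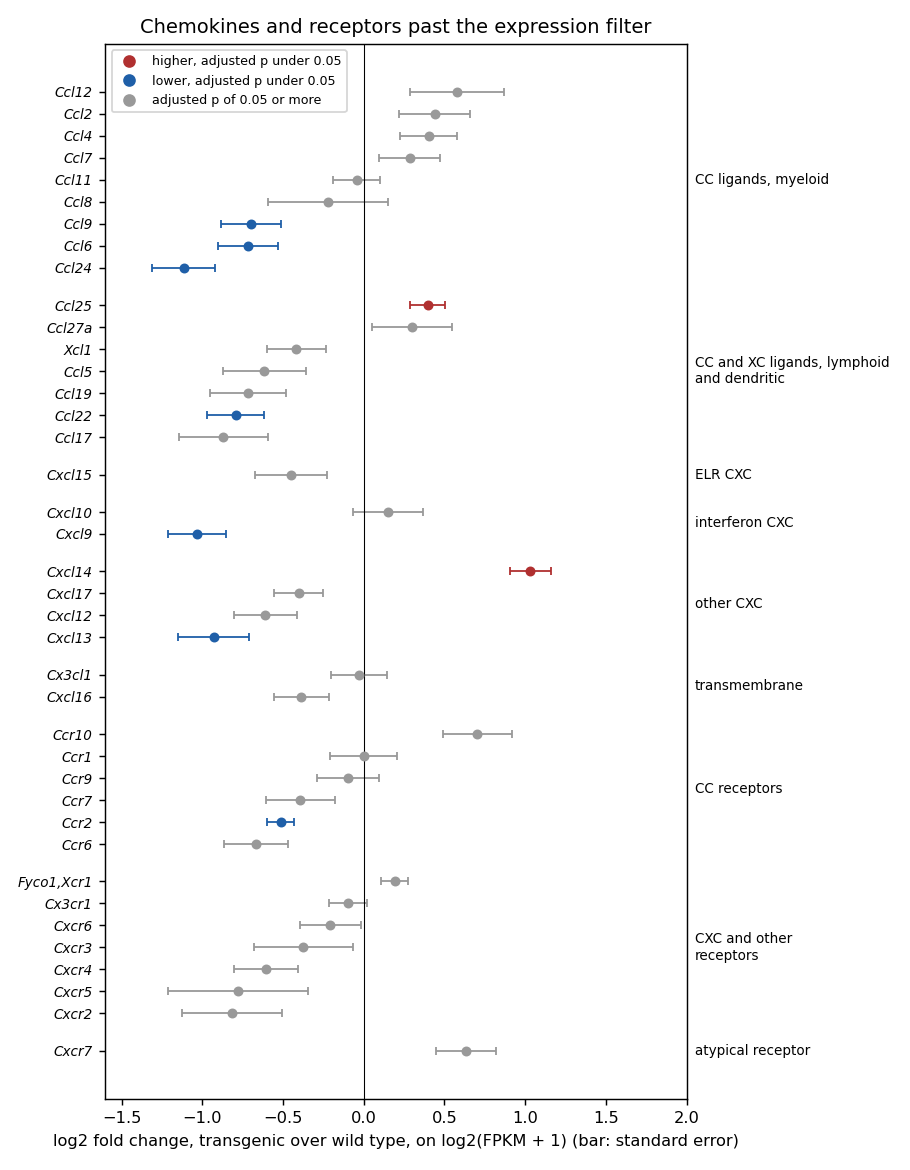
Log2 fold change (transgenic over wild type, on log2(FPKM + 1)) of chemokine and receptor entries past the expression limit, grouped by role; bars are standard errors (SE) from limma, and colour marks an adjusted p under 0.05. Of the 9 coloured points, 7 lie to the left of 0 and 2, *Cxcl14* and *Ccl25*, lie to the right.

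The counts moved with single mice. Leaving out transgenic replicate 1, transgenic replicate 3 or wild-type replicate 3 left 4 lower genes, and leaving out transgenic replicate 2 gave 9. The calls of *Cxcl14*, *Ccl24*, *Cxcl9* and *Ccr2* were made in all 14 alternative settings at an adjusted p under 0.05, including each mouse left out in turn, and at an adjusted p under 0.01 only *Cxcl14* and *Ccr2* remained. *Ccl22* and *Cxcl13* were called in 9 of the 14, *Ccl9* in 8, *Ccl6* in 7 and *Ccl25* in 6.

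*Cxcl14* encodes a chemokine made by epithelium, stroma and fat that is conserved across vertebrates and has been linked to macrophages and to thermogenic fat. It lies at chr13:56288643-56296551 on the minus strand of mm10. It had 45.9, 40.3 and 50.7 FPKM in transgenic replicates 1, 2 and 3 and 22.7, 18.6 and 24.3 FPKM in wild-type replicates 1, 2 and 3. The lowest transgenic mouse was thus above the highest wild-type mouse. The means were 45.6 ± 5.22 and 21.9 ± 2.94 FPKM (SD, n = 3), a log2 fold change of 1.03 (SE 0.13, limma adjusted p = 0.0029), and the adjusted p was 0.015 or less in every alternative.

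*Ccl25* encodes the ligand of Ccr9, known from thymus and small intestine, and lies at chr8:4325142-4360020 on the plus strand. It had 4.51, 4.11 and 3.80 FPKM in the transgenic mice and 2.52, 2.90 and 3.32 FPKM in the wild-type mice. The groups did not overlap, but the gap between them was small. The log2 fold change was 0.40 (SE 0.11, limma adjusted p = 0.0488), and leaving out any one mouse ended the call, with adjusted p of 0.0589 to 0.122. Its receptor gene *Ccr9* had 1.62 ± 0.436 FPKM in the transgenic mice against 1.81 ± 0.551 FPKM in the controls (SD, n = 3, limma adjusted p = 0.744). Exons of *Ccl25* share 204 bases, or 2.74%, with *Elavl1* on the other strand, and the library kit does not mark strand. Those of *Ccr9* share 1932 bases, or 18.8%, with *AC165425.1* on the other strand and 269 bases, or 2.62%, with *Gm17200* on the same strand.

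**Figure D2:**
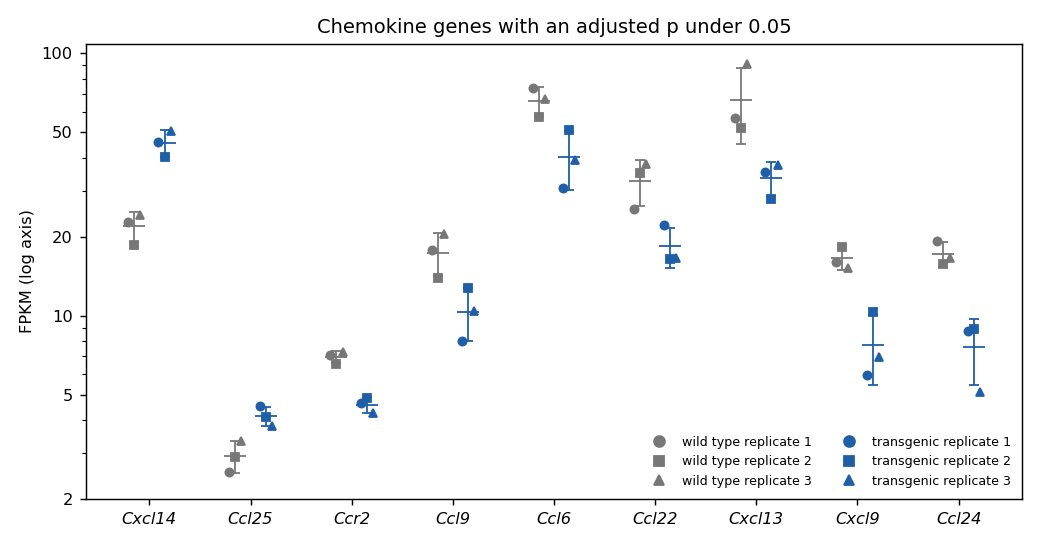
FPKM (log axis) of the 9 genes with an adjusted p under 0.05 in each mouse, grey for wild type and blue for transgenic, with the mean and SD of 3 mice. *Cxcl14* and *Ccl25* sit higher in blue, the other 7 genes sit lower, and the groups overlap for none of the 9.

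Among the CC ligands of monocytes, macrophages and granulocytes, 9 of 11 were compared, and 3 were lower and 0 higher. These made up 33.3% and 0% of the 9, beside 7.03% and 11.6% of all loci tested. *Ccl24*, or eotaxin-2, is made by alternatively activated macrophages and draws eosinophils through Ccr3, and its gene lies at chr5:135569832-135573095 on the minus strand. It had 8.74, 8.88 and 5.09 FPKM in the transgenic mice against 19.3, 15.7 and 16.5 FPKM in the controls. No transgenic mouse reached the lowest wild-type value, and the log2 fold change was -1.11 (SE 0.19, limma adjusted p = 0.0104).

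*Ccl11*, or eotaxin-1, binds the same receptor and is made largely by fibroblasts. It had 55.0, 72.4 and 70.8 FPKM in the transgenic mice against 66.8, 59.2 and 78.0 FPKM in the controls, and the ranges overlapped almost fully. Its log2 fold change was -0.04 (SE 0.14, limma adjusted p = 0.851). Within a mouse the ratio of *Ccl24* to *Ccl11* was 0.159, 0.123 and 0.0720 in the transgenic and 0.288, 0.266 and 0.212 in the wild-type mice (exact permutation p = 0.1, two-sided). The receptor gene *Ccr3* was under the expression limit, with at most 0.181 FPKM in any mouse, and the eosinophil markers *Epx* and *Il5ra* stayed under 1 FPKM in every mouse. *Prg2*, another eosinophil gene, was under the limit too and was not tested, with 0.167, 0.157 and 0.172 FPKM in the transgenic mice against 0.759, 0.759 and 1.07 FPKM in the controls, without overlap.

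*Ccl6* and *Ccl9* are neighbours on the minus strand of chromosome 11 and encode rodent chemokines of the Ccr1 group made by macrophages and other myeloid cells. *Ccl6* had 30.8, 51.1 and 39.1 FPKM in the transgenic mice against 73.6, 57.0 and 67.1 FPKM in the controls (log2 fold change -0.72, SE 0.19, limma adjusted p = 0.0393). *Ccl9* had 8.01, 12.7 and 10.4 FPKM in the transgenic mice against 17.9, 13.9 and 20.4 FPKM in the controls (log2 fold change -0.70, SE 0.19, limma adjusted p = 0.0425). For both genes, transgenic replicate 2 came closest to the wild-type range and wild-type replicate 2 was the lowest wild-type mouse. The deposited locus of *Ccl6*, chr11:83582061-83623693, reaches beyond the gene, which spans chr11:83587882-83593087 in GENCODE vM21, and that of *Ccl9* is chr11:83572917-83578636. Their receptor gene *Ccr1* had 1.96 ± 0.397 FPKM in the transgenic mice against 2.01 ± 0.785 FPKM in the controls (SD, n = 3, limma adjusted p = 1.00).

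The monocyte chemoattractants did not pass the test. *Ccl2*, the main ligand of Ccr2, had 4.65, 6.97 and 4.08 FPKM in the transgenic mice against 3.28, 4.78 and 2.71 FPKM in the controls (log2 fold change 0.44, limma adjusted p = 0.193). *Ccl12*, its close relative in mice, had 5.18, 6.38 and 4.17 FPKM in the transgenic mice against 3.19, 5.23 and 1.73 FPKM in the controls (log2 fold change 0.58, limma adjusted p = 0.201). For both genes the groups overlapped and transgenic replicate 2 was the highest mouse.

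*Ccl7*, a further Ccr2 ligand, had a log2 fold change of 0.28 (limma adjusted p = 0.314). *Ccl4*, made by activated macrophages and T cells, had 1.40, 1.75 and 1.21 FPKM in the transgenic mice against 1.24, 0.885 and 0.500 FPKM in the controls (log2 fold change 0.40, limma adjusted p = 0.155), and its groups overlapped through transgenic replicate 3. *Ccl8* varied most within a genotype in this group, with 14.7, 47.4 and 28.4 FPKM in the transgenic mice against 26.3, 33.9 and 36.2 FPKM in the controls (limma adjusted p = 0.699).

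The receptor *Ccr2*, which monocytes need to leave the bone marrow and enter tissue, lies at chr9:124101964-124109475 on the plus strand. It had 4.63, 4.87 and 4.24 FPKM in the transgenic mice against 7.10, 6.57 and 7.23 FPKM in the controls. Both groups were tight and did not overlap. The log2 fold change was -0.51 (SE 0.08, limma adjusted p = 0.0084), with means of 4.58 ± 0.317 and 6.97 ± 0.352 FPKM (SD, n = 3).

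*Cxcl9* and *Cxcl10* are induced by interferons and attract T cells and NK cells that carry Cxcr3, and their genes are neighbours on chromosome 5. *Cxcl9*, at chr5:92321331-92328079 on the minus strand, had 5.92, 10.3 and 6.95 FPKM in the transgenic mice against 16.0, 18.3 and 15.3 FPKM in the controls. Its groups did not overlap, and the log2 fold change was -1.03 (SE 0.18, limma adjusted p = 0.0104). *Cxcl10* had 2.88, 4.12 and 2.24 FPKM in the transgenic mice against 1.83, 2.88 and 3.32 FPKM in the controls, and its groups overlapped (log2 fold change 0.15, limma adjusted p = 0.654).

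The ratio of *Cxcl9* to *Cxcl10* within a mouse was 2.06, 2.50 and 3.10 in the transgenic mice against 8.74, 6.37 and 4.60 in the controls, and no values overlapped (exact permutation p = 0.1, two-sided). *Cxcl11*, the other interferon-inducible ligand of the group, stayed under the limit with at most 0.187 FPKM. *Cxcr3* itself had 2.28, 7.36 and 3.85 FPKM in the transgenic mice against 5.38, 5.47 and 6.03 FPKM in the controls (limma adjusted p = 0.409), and transgenic replicates 1 and 2 were the lowest and the highest of all mice. *Cxcl10* shares 133 exon bases, or 5.91%, with *Art3* on the other strand, and the table gives both one locus with *Cxcl11*.

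Among the ligands of lymphocytes and dendritic cells, 7 of 16 entries were compared, and 1 was lower and 1, *Ccl25*, was higher. Each made up 14.3% of the 7, beside 7.03% lower and 11.6% higher calls over all loci tested. *Ccl22* encodes a chemokine of dendritic cells and macrophages that draws regulatory T cells through Ccr4, and it lies at chr8:94745684-94751388 on the plus strand. It had 22.1, 16.4 and 16.7 FPKM in the transgenic mice against 25.4, 35.0 and 37.8 FPKM in the controls. The groups were apart by the narrow gap between transgenic replicate 1 and wild-type replicate 1, and the log2 fold change was -0.79 (SE 0.17, limma adjusted p = 0.0232). *Ccl17*, the second Ccr4 ligand, lies on the same stretch of chromosome 8 and had 0.868, 0.652 and 2.15 FPKM in the transgenic mice against 2.37, 2.46 and 4.09 FPKM in the controls. Its groups did not overlap, and the log2 fold change was -0.87 (limma adjusted p = 0.0691). *Ccr4* stayed under the expression limit at 0.346 to 0.983 FPKM.

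*Ccl19* encodes a ligand that holds T cells and mature dendritic cells in the T zone of lymph nodes through Ccr7. Among the chemokine entries it was the most abundant in every mouse, but *Ccl21a* and *Ccl21b*, whose products also bind Ccr7, have no entry. It had 213, 396 and 231 FPKM in the transgenic mice against 403, 447 and 481 FPKM in the controls. Every transgenic value was under every wild-type value, by a small gap for transgenic replicate 2, and the test was not passed (log2 fold change -0.72, SE 0.24, limma adjusted p = 0.0753). Without transgenic replicate 2 the adjusted p was 0.00676. The *Ccl19*, *Ccl21* and *Ccl27* genes of chromosome 4 exist in near-identical copies, and the table gives *Ccl19* one locus with *Ccl21c*, *Ccl27b* and *Il11ra2*, so the division of reads between them is uncertain. *Ccr7* had 15.7, 28.1 and 22.2 FPKM in the transgenic mice against 23.5, 32.8 and 29.9 FPKM in the controls, with overlapping groups (log2 fold change -0.39, limma adjusted p = 0.226).

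*Ccl5*, made by T cells, NK cells and macrophages and read through several CC receptors, came second in abundance among the entries. It had 114, 196 and 135 FPKM in the transgenic mice against 169, 295 and 220 FPKM in the controls, and the groups overlapped (log2 fold change -0.62, limma adjusted p = 0.135). *Xcl1*, the lymphotactin of NK and CD8+ T cells, had 4.03 ± 1.01 and 5.70 ± 1.22 FPKM (SD, n = 3, limma adjusted p = 0.147). It shares 98 exon bases, or 18.7%, with *Gm20743* on the other strand. *Ccl27a*, a skin chemokine gene, had 7.84 ± 1.26 and 6.45 ± 2.81 FPKM (SD, n = 3, limma adjusted p = 0.414). The entry that holds *Xcr1* joins it to *Fyco1*, and its 22.4, 18.9 and 19.9 FPKM in transgenic and 17.2, 17.7 and 18.3 FPKM in wild-type replicates cannot be read as a level of *Xcr1*.

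*Cxcl13* encodes the B cell chemokine of lymphoid follicles and lies at chr5:95956939-95961068 on the plus strand. It had 35.4, 27.9 and 37.6 FPKM in the transgenic mice against 56.6, 52.1 and 90.8 FPKM in the controls. The groups were well apart, with wild-type replicate 3 far above the other wild-type mice, and the log2 fold change was -0.93 (SE 0.22, limma adjusted p = 0.0288). Its receptor gene *Cxcr5*, a marker of follicular B and T cells, had 0, 0.575 and 0.378 FPKM in the transgenic mice against 0.341, 0.826 and 3.48 FPKM in the controls, and wild-type replicate 3 was again the highest (limma adjusted p = 0.241). *Cxcr5* shares 110 exon bases, or 3.30%, with *Bcl9l* on the other strand. *Ccr6*, a receptor of B cells and Th17 cells, had 3.08, 3.36 and 3.53 FPKM in the transgenic mice against 4.53, 5.11 and 8.52 FPKM in the controls (log2 fold change -0.67, limma adjusted p = 0.0588), and its ligand gene *Ccl20* stayed at or below 0.135 FPKM.

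*Cxcl12* encodes the constitutive stromal chemokine that holds Cxcr4-bearing cells, and Cxcr7, now named Ackr3, is an atypical receptor that takes Cxcl12 up without Gi signalling. *Cxcl12* had 38.3, 60.0 and 48.0 FPKM in the transgenic mice against 85.9, 59.1 and 78.8 FPKM in the controls, and the groups overlapped only through replicate 2 of each (log2 fold change -0.61, limma adjusted p = 0.0711). *Cxcr4* had 12.9, 15.4 and 19.2 FPKM in the transgenic mice against 18.5, 28.7 and 26.8 FPKM in the controls (log2 fold change -0.61, limma adjusted p = 0.0723), with transgenic replicate 3 just above wild-type replicate 1.

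*Cxcr7* lay the other way, with 36.4, 53.7 and 38.8 FPKM in the transgenic mice against 29.1, 21.5 and 31.2 FPKM in the controls. Its groups did not overlap and its log2 fold change was 0.63, but the test was not passed (SE 0.19, limma adjusted p = 0.0568). Of the 14 alternatives, only sample quality weights gave a call, at an adjusted p of 0.0326. The ratio of *Cxcr7* to *Cxcr4* within a mouse was 2.83, 3.50 and 2.02 in the transgenic and 1.57, 0.751 and 1.16 in the wild-type mice. These ratios did not overlap (means 2.78 ± 0.739 and 1.16 ± 0.410, SD, n = 3, exact permutation p = 0.1, two-sided).

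**Figure D3:**
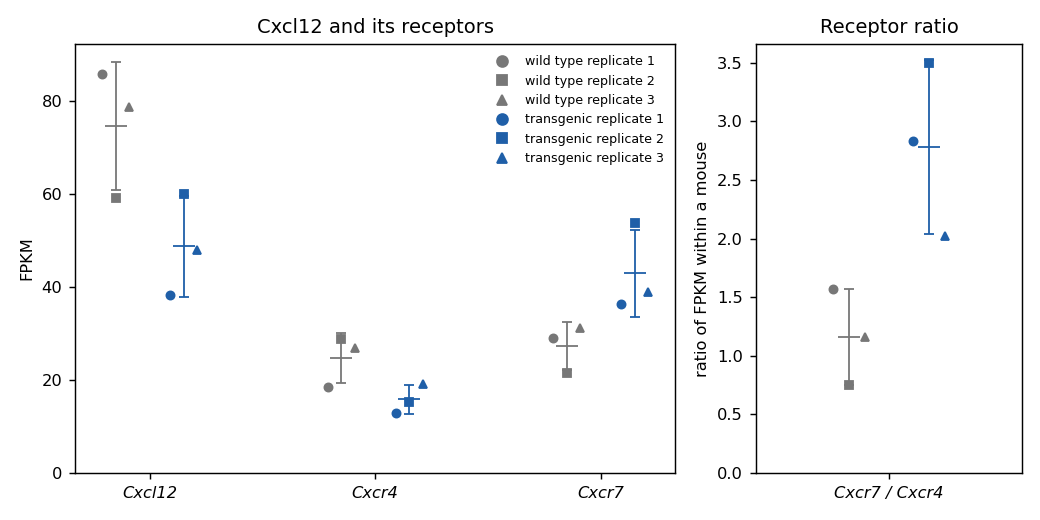
FPKM of *Cxcl12* and its receptor genes *Cxcr4* and *Cxcr7* in each mouse (left), and the ratio of *Cxcr7* to *Cxcr4* within each mouse (right), with mean and SD of 3 mice per genotype. *Cxcl12* and *Cxcr4* have lower means in the transgenic mice with overlapping groups, and the transgenic ratios of 2.02 to 3.50 all lie above the wild-type ratios of 0.751 to 1.57.

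The other receptors and ligands were low or overlapped. *Ccr10*, a receptor of skin and mucosal lymphocytes, had 1.40, 2.33 and 1.16 FPKM in the transgenic mice against 0.521, 0.341 and 0.954 FPKM in the controls, without overlap (log2 fold change 0.70, limma adjusted p = 0.0623), and its locus is joined to that of *Cntnap1*, *Plekhh3* and *Ezh1*. *Cxcr2*, the neutrophil receptor, had 0.736, 0.484 and 0.893 FPKM in the transgenic mice against 1.35, 1.26 and 4.01 FPKM in the controls, with wild-type replicate 3 highest (limma adjusted p = 0.107).

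The neutrophil ligands *Cxcl1*, *Cxcl2*, *Cxcl3* and *Cxcl5* were all under the limit, and the highest value among them was 0.501 FPKM, of *Cxcl1*. *Cxcl15* of the same group had 1.06, 2.30 and 1.01 FPKM in the transgenic mice against 2.87, 2.21 and 1.81 FPKM in the controls (limma adjusted p = 0.192). The transmembrane ligand genes *Cxcl16* and *Cx3cl1*, which tether leukocytes before being shed, had log2 fold changes of -0.39 and -0.03 (limma adjusted p = 0.148 and 0.921). *Cxcl16* had 9.52, 13.7 and 13.2 FPKM in the transgenic mice against 13.1, 17.0 and 18.4 FPKM in the controls, and shares 552 exon bases, or 18.3%, with *Zmynd15*. Their receptor genes *Cxcr6* and *Cx3cr1* had log2 fold changes of -0.21 and -0.10 (limma adjusted p = 0.456 and 0.588). *Cxcl17*, a mucosal chemokine gene whose locus is joined to that of *Lipe*, *Ceacam1* and *Ceacam2*, had 0.382, 0.597 and 0.689 FPKM in the transgenic mice against 0.795, 1.30 and 1.09 FPKM in the controls (limma adjusted p = 0.107).

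The 21 entries under the limit comprised 4 on unplaced scaffolds and 17 on chromosomes, and 6 were listed at 0 in every mouse. *Ccl26* and the copies of *Ccl27b* were among those at 0. *Ccl1*, *Ccl3*, *Ccr4* and *Ccr8* were the highest, with a mean of at least 0.437 FPKM in each genotype.

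Summed over all ligand entries, the mice had 642, 1001 and 734 FPKM in transgenic and 1037, 1162 and 1225 FPKM in wild-type replicates 1, 2 and 3. Every transgenic sum was under every wild-type sum, and transgenic replicate 2 was close to wild-type replicate 1. *Ccl21a* and *Ccl21b* have no entry and are missing from the sums and shares. *Ccl19* made up 31.4% to 39.6% of the sum in transgenic and 38.4% to 39.3% in wild-type mice, and *Ccl5* made up 17.7% to 19.6% and 16.3% to 25.3%. Without these 2 genes the sums were 316, 409 and 368 FPKM in the transgenic mice against 465, 421 and 524 FPKM in the controls. *Cxcl14* went from 1.60% to 2.19% of the ligand sum in the wild-type mice to 4.02% to 7.15% in the transgenic mice. The receptor entries, without the joint one of *Fyco1* and *Xcr1*, summed to 86.0, 130 and 106 FPKM in the transgenic mice against 103, 116 and 133 FPKM in the controls, and these ranges overlapped.

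**Figure D4:**
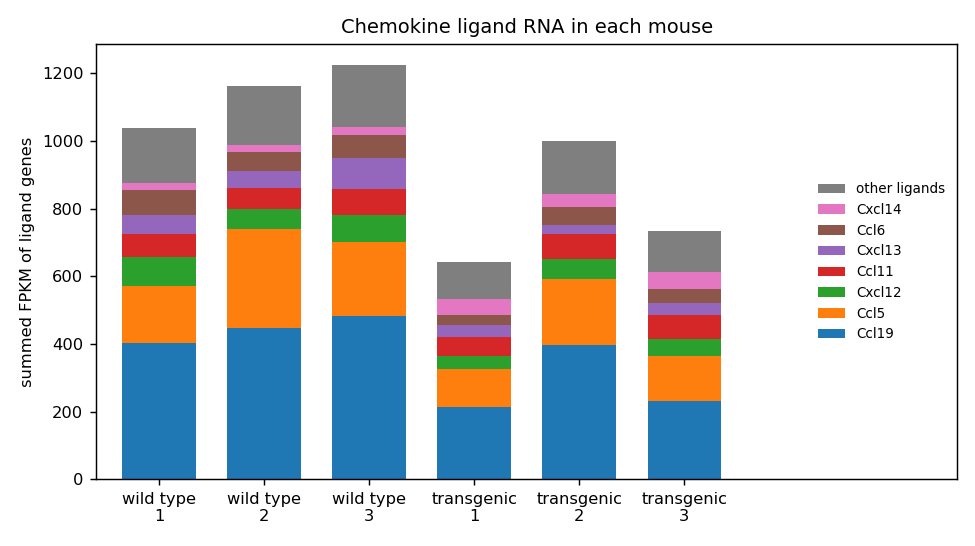
Summed FPKM of all chemokine ligand entries in each mouse, split into the 7 genes with the highest mean and the rest. The transgenic bars, at 642 to 1001 FPKM, are all shorter than the wild-type bars, at 1037 to 1225 FPKM, and *Ccl19* and *Ccl5* are the largest blocks in each.

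Neighbouring genes did not always share one direction. In the chromosome 11 cluster of *Ccl2*, *Ccl7*, *Ccl11*, *Ccl12* and *Ccl8*, between positions 82035577 and 82116799, none of the genes passed the test, and the log2 fold changes were 0.44, 0.28, -0.04, 0.58 and -0.22. In the second chromosome 11 cluster, between 83525779 and 83664683, *Ccl9* and *Ccl6* were lower while *Ccl5* had a log2 fold change of -0.62 and *Ccl4* of 0.40, neither past the test. On chromosome 8, *Ccl22* and *Ccl17*, at -0.79 and -0.87, flank *Cx3cl1*, whose log2 fold change was -0.03. All of these lay below 0, and only *Ccl22* passed the test. Of 13 ligand and receptor pairs on the list used, which names only some ligands of each receptor, with both genes compared, both log2 fold changes were below 0 in 7, both were above 0 in 1, and the signs were opposite in 5 (the joint entry of *Fyco1* and *Xcr1* counted as *Xcr1*), among them *Ccl2* with *Ccr2*, *Ccl25* with *Ccr9* and *Cxcl12* with *Cxcr7*. *Ccl7* and *Ccl12*, which are not on the list, also had log2 fold changes above 0 beside the lower *Ccr2*, and *Ccl6* and *Ccl9* were lower beside a log2 fold change of 0.00 for *Ccr1*.

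Promoter sequences show which letters precede these genes. RefSeq windows (GRCm38.p6, the build of mm10) of 250 bases before the start were found for 27 of the 40 entries, 31 windows in all. They were searched on both strands for 5 motifs, namely the kappaB site of NF-kappaB, the core of the interferon response element ISRE (TTTCNNTTT), the TATA box (TATAAA), the AP-1 site (TGANTCA) and a homeobox core (TAATTA). The TATA box was in 32.3% of the 31 windows and in 12.4% of all 32851 windows of the table. The kappaB site was in 12.9% against 7.25%, the ISRE core in 12.9% against 9.37% and AP-1 in 9.68% against 6.75%. The homeobox core was in 3.23%, the window of *Cxcl15*, against 4.84%. These matches are descriptions of the letters and not of bound sites.

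Of the genes that passed the test, the windows of *Cxcl14*, *Cxcl9*, *Cxcl13* and *Ccl9*, and 1 of 2 windows of *Ccl25*, held a match, and those of *Ccr2*, *Ccl22* and *Ccl6* held none. The first 4 are shown as examples, *Cxcl14* from the higher genes and 3 from the lower genes. They do not stand for a difference by direction. The TATA box was in 3 of the 6 lower genes with a window and in 1 of the 2 higher genes, *Ccl25*, at -16. Each runs 5′ to 3′ on the gene's strand up to the base before its start, with matches in capitals. *Cxcl14* (chr13:56296552-56296801, minus strand) has an ISRE core match on the other strand at position -171, and no TATA box. *Cxcl9* (chr5:92328080-92328329, minus strand) has a TATA box match at -195. *Cxcl13* (chr5:95956689-95956938, plus strand) has one at -46. *Ccl9* (chr11:83578637-83578886, minus strand) has a kappaB match at -35, an AP-1 match at -53 and 3 TATA box matches farther upstream, of which the pair nearest the start overlaps. Positions count back from the start and give the first base of the match.
Cxcl14: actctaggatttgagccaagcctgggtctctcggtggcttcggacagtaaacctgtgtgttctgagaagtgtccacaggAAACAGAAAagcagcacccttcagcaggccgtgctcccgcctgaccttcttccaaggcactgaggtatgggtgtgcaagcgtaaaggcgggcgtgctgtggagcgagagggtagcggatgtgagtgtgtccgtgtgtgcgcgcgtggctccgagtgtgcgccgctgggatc
Cxcl9: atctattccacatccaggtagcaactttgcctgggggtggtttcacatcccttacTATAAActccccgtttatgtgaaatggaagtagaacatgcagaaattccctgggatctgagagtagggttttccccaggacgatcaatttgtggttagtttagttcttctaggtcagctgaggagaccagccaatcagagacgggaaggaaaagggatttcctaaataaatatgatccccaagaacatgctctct
Cxcl13: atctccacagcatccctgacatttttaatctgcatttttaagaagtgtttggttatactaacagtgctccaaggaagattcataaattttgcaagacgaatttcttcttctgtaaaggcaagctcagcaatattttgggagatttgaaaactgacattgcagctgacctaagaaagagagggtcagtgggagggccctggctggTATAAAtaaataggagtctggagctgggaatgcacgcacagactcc
Ccl9: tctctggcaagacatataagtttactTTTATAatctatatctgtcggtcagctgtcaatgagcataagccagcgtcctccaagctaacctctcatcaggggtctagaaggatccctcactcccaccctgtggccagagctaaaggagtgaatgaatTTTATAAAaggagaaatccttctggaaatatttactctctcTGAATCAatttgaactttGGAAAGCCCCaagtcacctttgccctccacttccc

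Of 46 genes listed for signalling around chemokine receptors, 42 were compared. Of these, 2 passed the test as higher, or 4.76% beside 11.6% of all loci, and 6 as lower, or 14.3% beside 7.03%. The 6 became 1 on leaving out transgenic replicate 1 or 3 or wild-type replicate 2 or 3, and 11 on leaving out transgenic replicate 2. Their median log2 fold change was -0.33, beside -0.01 for all loci. *Gnai1*, a Gi alpha subunit, fell from 50.8, 55.6 and 58.9 FPKM in wild-type to 25.6, 26.9 and 26.7 FPKM in transgenic mice (log2 fold change -1.03, SE 0.08, limma adjusted p = 0.000715). *Gnai2*, the Gi subunit that predominates in leukocytes, had 168 ± 17.6 and 206 ± 16.4 FPKM in transgenic and wild-type mice (SD, n = 3, limma adjusted p = 0.109). *Adrbk2*, a kinase that phosphorylates active receptors, rose from 6.19, 4.77 and 6.19 FPKM in wild-type to 27.6, 21.2 and 21.8 FPKM in transgenic mice (log2 fold change 1.87, SE 0.13, limma adjusted p = 0.000581).

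*Gnai1* and *Adrbk2* also serve other receptors and other cells, including fat cells. The other calls lay close to the threshold, at limma adjusted p of 0.0319 to 0.0485. These were the kinase *Grk5*, with a log2 fold change of 0.43, and, on the lower side, *Grk6*, the arrestin *Arrb2*, the leukocyte lipid kinase *Pik3cg*, the Rac activator *Tiam1* and the regulator *Rgs14*. Their log2 fold changes were -0.49, -0.36, -0.58, -0.45 and -0.53. Chemokine genes that carry other symbols did not pass the test. *Pf4*, which encodes Cxcl4, had 37.9, 45.4 and 39.4 FPKM in the transgenic mice against 55.9, 46.4 and 54.4 FPKM in the controls, narrowly without overlap (log2 fold change -0.35, limma adjusted p = 0.0652), and the atypical receptor genes *Ccbp2* and *Ccrl1* had log2 fold changes of -0.35 and -0.40 (limma adjusted p = 0.282 and 0.0639).

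Among markers of the cells that make or read these chemokines, some were lower in the transgenic mice too. Macrophage markers, most of whose FPKM was *Lyz2*, *C1qa* and *C1qb*, summed to 614 to 897 FPKM in the transgenic mice against 1106 to 1518 FPKM in the controls. Of the 10, 5 were lower, among them *Cd68* at 42.0 ± 5.14 against 77.0 ± 7.47 FPKM (SD, n = 3, limma adjusted p = 0.0040). All 10 log2 fold changes were below 0, but *C1qa* and *C1qb* overlapped between genotypes (limma adjusted p = 0.0863 and 0.109). *Fcgr1* hardly differed, at 2.39 ± 0.648 against 2.63 ± 0.655 FPKM (SD, n = 3, limma adjusted p = 0.722). These markers stand beside the lower *Ccl24*, *Ccl6*, *Ccl9* and *Ccr2*. Not all chemokine and receptor genes of macrophages and monocytes were lower. *Ccl2*, *Ccl12*, *Ccl7* and *Ccl4* had log2 fold changes of 0.44, 0.58, 0.28 and 0.40. Those of *Ccr1* and *Cx3cr1* were 0.00 and -0.10, and none of these genes passed the test. B cell markers summed to 138 to 175 and 207 to 354 FPKM, and 5 of 8 were lower, among them the follicular genes *Cr2* and *Fcer2a*, beside the lower *Cxcl13*. Dendritic cell markers summed to 18.7 to 28.4 and 30.1 to 35.3 FPKM, with 1 of 6, *Cd209a*, lower, beside the lower *Ccl22*. *Zbtb46* of that list lay the other way, with 4.53, 4.82 and 4.63 FPKM in the transgenic mice against 3.55, 3.43 and 4.36 FPKM in the controls, and did not pass the test (log2 fold change 0.25, limma adjusted p = 0.126). Lower calls made up 50%, 62.5% and 16.7% of the macrophage, B cell and dendritic cell markers compared, beside 7.03% of all loci tested.

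T cell markers, with 0 of 10 called, summed to 229 to 364 FPKM in the transgenic mice against 301 to 387 FPKM in the controls. NK cell markers gave 14.1 to 16.4 and 16.1 to 18.9 FPKM with 1 of 5, *Gzma*, lower, and granulocyte markers 21.5 to 55.1 and 9.18 to 21.8 FPKM with 0 of 4 called. Markers of high endothelial venules and lymph node stroma, dominated by *Glycam1*, summed to 1845 to 2570 and 1969 to 3468 FPKM, and 1 of 5, the addressin *Madcam1*, was lower. Endothelial markers summed to 209 to 224 and 210 to 218 FPKM with 2 of 10 higher and 1 lower, fibroblast markers to 1007 to 1314 and 1179 to 1587 FPKM with 0 of 7 called, and epithelial markers to 120 to 240 and 207 to 274 FPKM with 0 of 6 called. The lower calls made up 20% of the NK cell and venule markers compared and 10% of the endothelial ones, beside 7.03% of all loci tested. The 2 higher endothelial calls made up 20%, beside 11.6% of all loci. None of the markers with a value was at 0 in every mouse. The part of these cell types in the chemokine results was not tested.

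Transgenic replicate 2 was the highest transgenic mouse for 28 of the 40 entries, and transgenic replicate 1 was the lowest for 21. Replicate 2 also had the highest sums of macrophage, B cell and T cell markers among the transgenic mice, and skeletal muscle markers at 569 FPKM, against 78.2 and 115 FPKM in the other transgenic and 7.14 to 121 FPKM in the wild-type mice. Wild-type replicate 3 was the highest wild-type mouse for 24 of the 40 entries and had the highest macrophage and B cell sums. Such counts were not made over all loci, so they cannot be read as a trait of the chemokine genes. Relative depth was 1.14 in transgenic replicate 2 against 0.711 and 0.690 in transgenic replicates 1 and 3. Among the wild-type mice it was highest in replicate 2, at 1.42. The part of depth, of muscle, of the lymph node and of macrophage content in these differences between mice was not tested.

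**Figure D5:**
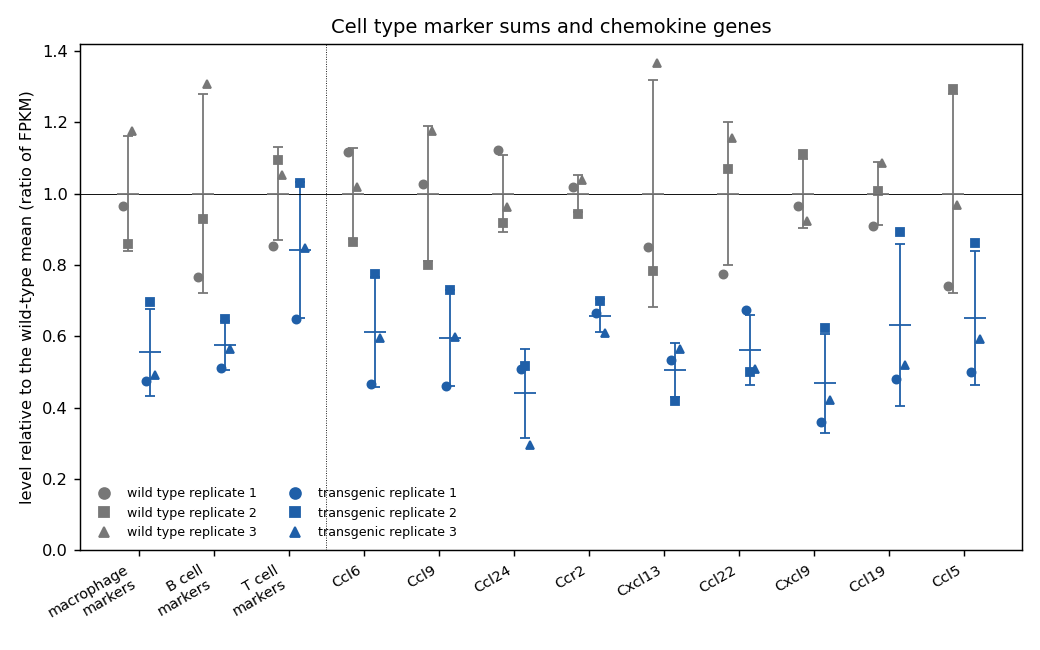
Summed FPKM of macrophage, B cell and T cell markers (left of the dotted line) and FPKM of 9 chemokine and receptor genes (right), each divided by its wild-type mean, in every mouse, with mean and SD of 3 mice. The transgenic macrophage and B cell sums lie under all wild-type sums, as do the values of the genes shown other than *Ccl5*, and the T cell sums overlap. All genes shown have lower means in the transgenic mice, and genes that do not, such as *Ccl2* and *Ccl12*, are not shown.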

How the data were processed

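RNA-Seq was performed on iWAT of 3 transgenic and 3 wild-type mice, grouped by their labels. The authors made TruSeq v2 libraries from 4 µg of total RNA, sequenced them single-end at 100 bases, aligned the reads to mm10 and deposited gene FPKM values from Cufflinks for each mouse. The submitters' processing notes name CASAVA 1.8.2, TopHat2 2.0.9, Bowtie2 2.1.0 and Cufflinks 2.2.1. The annotation and read totals are not given in the sources used here, so only relative depth could be estimated, from low values, and no count test was run. All 6 value columns were used.

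The test took loci whose mean FPKM was over 1 in either genotype, on log2(FPKM + 1) with the limma package (3.58.1, under R 4.3.3; lmFit and trended eBayes without covariates, two-sided, with Benjamini-Hochberg adjustment over all 11692 loci). A fold change on this scale understates that of low genes. The exact permutation test used all 20 arrangements. The procedure was run on simulated data, with independent normal noise of the fitted spread around the wild-type means. That leaves out unequal depth and shifts shared by the genes of a mouse, so it checks the code only. Alternatives were a pseudocount of 0.1, other filters, each mouse left out, quantile and median-ratio scaling, a replicate block, sample quality weights, untrended eBayes and an adjusted p under 0.01. Any entry past the limit could be named, and values in every mouse were given by rule for genes past the test, with a mean over 10 FPKM or with a ratio of means of at least 1.5. The genes, lists, pairs and tests were chosen with earlier results of these data known. The values of 1 entry and 1 motif search are not reported here, and the entry stays in the counts.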

Additional observations from a re-analysis of the deposited data

How the results depend on the processing

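With no filter on low values (loci at 0 in every mouse left out), 1 entry was higher and 4 lower, the median log2 fold change was -0.10, and 1 signalling gene was higher and 1 lower. With calls at an adjusted p under 0.01, 1 entry (*Cxcl14*) was higher and 1 (*Ccr2*) lower, and 1 signalling gene was higher and 1 lower. Leaving out each mouse in turn gave 1 to 2 higher and 4 to 9 lower entries, a median of -0.51 to -0.21, and 1 to 3 higher and 1 to 11 lower signalling genes. Sample quality weights gave 3 higher and 9 lower signalling genes, and quantile normalization gave 2 and 9. Deviations of same-numbered mice correlated at 0.0129, 0.0344 and 0.0701, inside the range of -0.186 to 0.135 of the other pairs. With 3 mice per genotype these values cannot show whether same-numbered mice were paired. With the replicate block, 2 entries were higher (*Cxcl14*, *Ccl2*) and 8 lower (*Ccr2*, *Ccl24*, *Cxcl9*, *Cxcl13*, *Ccl17*, *Cxcr4*, *Ccl5*, *Cxcl16*), and 4 signalling genes were higher and 8 lower. Values near 0 changed sign: *Ccl11* and *Cx3cl1* with sample quality weights (0.067 each), *Ccr1* with median-ratio scaling (-0.0020), and, over mice left out, *Ccl11* (-0.14 to 0.081), *Cx3cl1* (-0.12 to 0.13), *Ccr1* (-0.19 to 0.19), *Ccl8* (-0.61 to 0.20), *Ccr9* (-0.26 to 0.048), *Cxcr6* (-0.36 to 0.012) and *Cxcl10* (-0.030 to 0.30). The causes were not tested. Of 572 values of single genes, *Hlx* included, 509 kept their direction and side of the threshold, 31 lost the call, 17 gained one and 15 changed sign. Most of the 572 belong to genes that were not called, which count as kept when they stay uncalled. The 31 lost calls were all of *Ccl22*, *Cxcl13*, *Ccl6*, *Ccl9* and *Ccl25*. With 3 mice per genotype and unknown absolute depth, low FPKM values are the least precise.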
